A study of Mus musculus with 12 samples.

Results

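The genes described here are 38 interferon-stimulated and viral RNA sensing genes, chosen by name: the interferon receptor subunits, the transcription factors and RNA sensors of the pathway, and the antiviral effectors it switches on. A gene was measured where at least 1 probe set of the array carried its symbol and no other, which held for 36 of the 38 members and for 19938 genes in all. Ifi44 had no probe set under its symbol, and the probe set of Isg15 also carries a second gene, so neither is reported. The RNA came from N2A cells, a mouse neuroblastoma line that extends neurites on differentiation, measured on 12 whole-transcript gene arrays in 4 groups of 3. In KD cells the long non-coding RNA Dali was depleted by a stably expressed short hairpin RNA (shRNA), and control cells carried a scrambled shRNA. The groups were proliferating KD cells, proliferating control cells, KD cells after 72 h in 20 uM all-trans retinoic acid (RA) and control cells after the same treatment. Both kinds of cell went through the same plasmid transfection and hygromycin selection of drug-resistant clones, with the shRNA driven by a U6 promoter, so a difference between clones and a difference caused by Dali cannot be told apart here. Serum was also reduced in the RA medium, and the effects of the RA and of the serum cannot be told apart either.

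Type I interferons bind a receptor made of Ifnar1 and Ifnar2, whose kinases phosphorylate transcription factors such as Stat2; Stat2 and Irf9 are subunits of the ISGF3 complex, which binds the interferon-stimulated response element (ISRE) in the promoters of its target genes. Viral double-stranded RNA in the cytoplasm is detected by the helicases RIG-I (Ddx58) and MDA5 (Ifih1), which signal through Mavs on mitochondria to Irf3 and Irf7 and so to interferon production. Many of the sensors and factors are themselves interferon targets, so the pathway amplifies its own components.

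Each value below is a log2 expression value of 1 array after the robust multi-array average (RMA), and a difference of 1 is a factor of 2. A gene was called where limma's two-sided test gave a Benjamini-Hochberg adjusted p under 0.05, over the 9969 genes kept by a variance filter, and the change was at least 1.3-fold, or 0.3785 on the log2 scale. Of the 36 members, 29 passed the filter; for the other 7 the adjusted p comes from the fit over all 19938 genes. Arrays of 1 group correlated at 0.9924 or higher over all genes. The study's methods call the 3 samples of a group biological replicates, and its text describes several independently isolated KD lines and 1 stable control line. Which array came from which line is not in the labels, so p-values speak of the spread among these 12 samples. No probe set was assigned to Dali, so its depletion could not be checked. The cells carried the markers of their type: 11 of 12 measured neuroblastoma and sympathoadrenal markers, Th and Dbh among them, exceeded 6.62, the level under which 95% of 1035 olfactory receptor probe sets lay and taken here as the upper end of unspecific signal. Among macrophage and lymphocyte markers 3 of 10 exceeded it, namely Cd68, Tyrobp and Cd3e, while Ptprc, Aif1 and Csf1r did not; the summed level of that list, as log2, spanned 9.52 to 9.64 over the proliferating KD arrays and 9.52 to 9.57 over the proliferating control arrays. Of the fibroblast markers 5 of 9 exceeded it, with summed levels of 9.79 to 9.86 in proliferating KD and 9.89 to 9.96 in proliferating control cells, and of the endothelial markers 3 of 7, with 9.40 to 9.42 and 9.37 to 9.41 in the same groups. In the macrophage and lymphocyte, fibroblast and endothelial lists 0 genes were called by limma between KD and control cells, and their part in the results was not tested. The summed level of the neuroblastoma and sympathoadrenal list was 14.03 to 14.07 in proliferating KD cells. In proliferating control cells it was 13.88 to 13.92, without overlap, and 5 of the 12 measured markers were called higher in KD cells. Of the 36 members, 25 exceeded the olfactory receptor level in at least 1 group. Over all genes 65.4% did so, which is also the share to set beside the marker counts. By group mean, Cxcl10, Mx2 and Usp18 exceeded the olfactory receptor level in proliferating KD cells alone. Usp18 lay near that level in the other groups, with a proliferating control mean of 6.6198 against a level of 6.621. Its highest arrays there were 6.71 in proliferating control cells, 6.78 in control cells after RA and 6.65 in KD cells after RA. The 11 members at or under the olfactory receptor level in every group, on the probe set used, were Ifit1, Ifit2, Ifit3, Ifitm1, Ifih1, Rsad2, Oas2, Oas3, Mx1, Irf7 and Parp14. The other probe set of Ifitm1 had group means of 6.93 to 6.97, above that level.

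In proliferating cells, 9 of the 36 members were higher in KD than in control cells and 0 were lower. They were Ifitm3, Cxcl10, Ifit1, Dtx3l, Ddx58, Mx2, Parp9, Irf9 and Irf1, by 1.31-fold to 1.84-fold. Of all 9969 genes tested, 3.96% were called higher in this comparison and 3% lower. Without the variance filter the same 9 members were called, against 1.98% of all 19938 genes called higher. The median change of the 36 members was 0.10, against -0.01 over all genes, and 26 of the 36 lay above 0, against 46.3% of all genes. In 16 members every KD array exceeded every control array, and in 2 every KD array was below; over all genes these shares were 19.7% and 19%. In bulk RNA a larger share of cells that express these genes and more of their RNA per cell cannot be told apart.

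**Figure D1:**
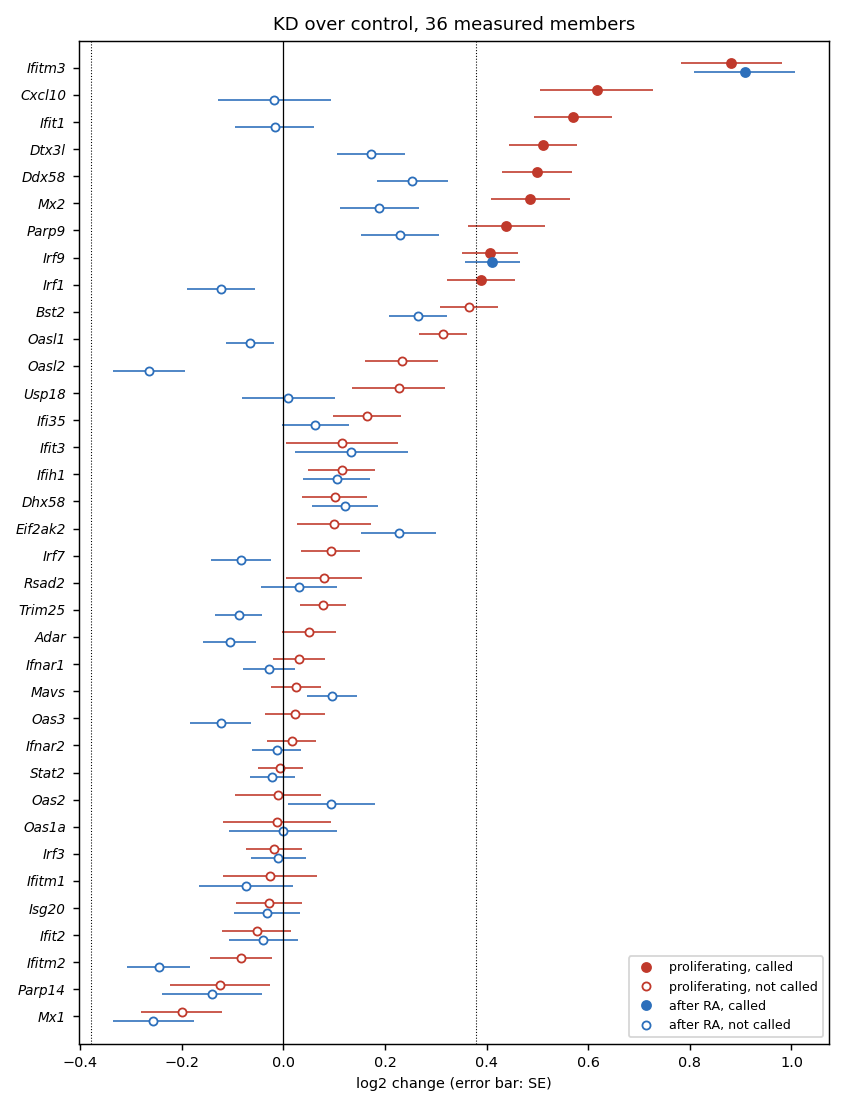
Log2 change of KD over control cells for the 36 measured members (horizontal axis; error bars, SE of the limma fit), in proliferating cells (red) and after RA (blue), ordered by the proliferating change. Filled points were called, and dotted lines mark the 1.3-fold limit. Ifitm3 and Irf9 stand right of the limit in both states, while the other 7 members called in proliferating cells stand left of it after RA.

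Among the ligands and receptors, the chemokine Cxcl10, which draws in activated T cells and is a classical interferon target, changed and the receptor did not pass the test. Cxcl10 measured 7.19, 6.98 and 6.81 on the proliferating KD arrays, against 6.18, 6.47 and 6.49 on the proliferating control arrays. After RA it measured 6.26, 6.25 and 6.51 in KD cells and 6.38, 6.47 and 6.23 in control cells. The proliferating KD arrays thus stood above all 9 others, and the 2 RA groups overlapped. The change was 0.62 ± 0.11 (SE) in proliferating cells (adjusted p = 0.00158, limma) and -0.02 ± 0.11 after RA (adjusted p = 0.927, limma).

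Ifnar1, the signalling subunit of the type I interferon receptor, measured 9.31, 9.17 and 9.19 in proliferating KD cells and 9.19, 9.19 and 9.18 in proliferating control cells, and after RA 9.28, 9.43 and 9.32 in KD cells and 9.40, 9.36 and 9.34 in control cells. Ifnar2, the high-affinity binding subunit, measured 9.83, 9.89 and 9.75 in proliferating KD cells and 9.86, 9.80 and 9.77 in proliferating control cells, and after RA 9.84, 9.83 and 9.78 in KD cells and 9.81, 9.88 and 9.80 in control cells. Both subunits were well above the olfactory receptor level on every array, and the KD and control arrays overlapped in both states. Their KD changes lay between -0.03 and 0.03, with SEs of 0.05.

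Irf9, the DNA-binding subunit of ISGF3, was the factor that differed in both states. It measured 8.08, 8.13 and 7.98 in proliferating KD cells and 7.70, 7.70 and 7.56 in proliferating control cells, and after RA 8.08, 8.06 and 8.07 in KD cells and 7.62, 7.72 and 7.64 in control cells. All 6 KD arrays exceeded all 6 control arrays. The change was 0.41 ± 0.06 (SE) in proliferating cells (adjusted p = 0.000218, limma) and 0.41 ± 0.06 after RA (adjusted p = 0.000191, limma). These values are close to the 1.3-fold limit: the proliferating change was 0.36 without control replicate 3 and 0.37 without KD replicate 2, and the change after RA was 0.37 with arrays centred on their medians, each below it.

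Stat2, the partner of Irf9 in ISGF3, measured 8.70, 8.77 and 8.69 in proliferating KD cells and 8.75, 8.78 and 8.66 in proliferating control cells, and after RA 8.51, 8.51 and 8.52 in KD cells and 8.51, 8.56 and 8.53 in control cells. Its KD change was -0.01 ± 0.05 in proliferating cells and -0.02 ± 0.05 after RA, and neither passed the test (adjusted p = 0.935 and 0.753, limma).

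Irf1, a factor that binds ISRE-like sites and is induced by interferon gamma and by NF-kB, measured 7.51, 7.76 and 7.64 in proliferating KD cells and 7.32, 7.27 and 7.15 in proliferating control cells. After RA it measured 7.33, 7.33 and 7.33 in KD cells and 7.55, 7.43 and 7.38 in control cells. KD arrays were thus above control arrays in proliferating cells and below them after RA. The change was 0.39 ± 0.07 (SE) in proliferating cells (adjusted p = 0.00113, limma), just past the fold limit, and -0.12 ± 0.07 after RA (adjusted p = 0.19, limma). The proliferating value rests on 1 of 2 probe sets. The one used matches the RefSeq transcripts of Irf1, and the other, which is assigned to the gene only through a cDNA clone, changed by -0.01. With both averaged the change was 0.19; without control replicate 3 it was 0.34, without KD replicate 2 it was 0.33 and with quantile normalisation repeated it was 0.376, each below the limit.

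Irf3, which is present before infection and activated by Mavs, measured 8.20, 8.24 and 8.21 in proliferating KD cells and 8.32, 8.15 and 8.24 in proliferating control cells, and after RA 7.84, 7.82 and 7.98 in KD cells and 7.90, 7.85 and 7.91 in control cells. Irf7, the interferon-induced relative that drives interferon alpha genes, measured 6.31, 6.25 and 6.27 in proliferating KD cells and 6.16, 6.25 and 6.13 in proliferating control cells, and after RA 6.09, 6.08 and 6.13 in KD cells and 6.06, 6.18 and 6.30 in control cells. Irf7 stayed within the olfactory receptor range on every array. Neither factor passed the test between KD and control cells in either state, with changes of -0.02 and 0.09 in proliferating cells and -0.01 and -0.08 after RA.

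Of the RNA sensors, Ddx58 changed. It measured 7.02, 7.19 and 7.29 in proliferating KD cells and 6.63, 6.67 and 6.69 in proliferating control cells, and after RA 6.74, 6.77 and 6.76 in KD cells and 6.47, 6.63 and 6.41 in control cells. KD arrays exceeded control arrays in both states, by 0.50 ± 0.07 (SE) in proliferating cells (adjusted p = 0.000292, limma) and by 0.25 ± 0.07 after RA. The change after RA passed the adjusted p (0.0147, limma) and not the fold limit. The control arrays, at 6.41 to 6.69, lay near or under the olfactory receptor level.

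Ifih1 measured 5.92, 5.94 and 5.83 in proliferating KD cells and 5.83, 5.82 and 5.71 in proliferating control cells, and after RA 5.68, 5.78 and 5.94 in KD cells and 5.67, 5.65 and 5.76 in control cells, all in the range of olfactory receptors. Dhx58 (LGP2), which lacks the signalling domains of the other sensors and modulates them, measured 6.59, 6.64 and 6.74 in proliferating KD cells and 6.52, 6.49 and 6.67 in proliferating control cells, and after RA 6.74, 6.70 and 6.83 in KD cells and 6.66, 6.71 and 6.54 in control cells. Neither passed the test: their changes lay between 0.10 and 0.12, with SEs of 0.06 to 0.07.

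The adaptor Mavs measured 8.08, 8.15 and 8.15 in proliferating KD cells and 8.10, 8.12 and 8.09 in proliferating control cells, and after RA 8.08, 8.08 and 8.04 in KD cells and 8.01, 8.03 and 7.87 in control cells. Trim25, the ubiquitin ligase that activates RIG-I, measured 8.02, 7.998 and 8.08 in proliferating KD cells and 7.95, 8.004 and 7.90 in proliferating control cells, and after RA 8.02, 8.03 and 7.995 in KD cells and 8.15, 8.12 and 8.04 in control cells. Both were expressed above the olfactory receptor level throughout, and neither KD change passed the test. After RA the KD arrays did not overlap the control arrays, standing above them for Mavs (0.10) and below them for Trim25 (-0.09).

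Ifitm3, a membrane protein that blocks the fusion of viruses in endosomes, showed the greatest KD change among the members in both states. It measured 8.11, 8.22 and 7.99 in proliferating KD cells and 7.25, 7.13 and 7.30 in proliferating control cells, and after RA 7.57, 7.73 and 7.75 in KD cells and 6.86, 6.94 and 6.52 in control cells. All 6 KD arrays exceeded all 6 control arrays. The change was 0.88 ± 0.10 (SE), or 1.84-fold, in proliferating cells (adjusted p = 7.83e-05, limma) and 0.91 ± 0.10, or 1.88-fold, after RA (adjusted p = 6.18e-05, limma). Its gene lies beside Ifitm1 and Ifitm2 on chromosome 7, and neither relative passed the test in proliferating cells, where Ifitm1 changed by -0.03 ± 0.09 and Ifitm2 by -0.08 ± 0.06. After RA Ifitm2 was lower by the adjusted p alone (-0.25 ± 0.06, adjusted p = 0.00938, limma), with KD arrays below control arrays. This value rests on the probe set used, and on the other probe sets of Ifitm2 the change after RA was -0.11 and 0.01. The Ifitm, Ifit, Oas and Mx genes are families of similar copies, and how far probes of 1 copy pick up another was not tested.

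Ifit1, which binds viral RNA that lacks the cap methylation of host mRNA, measured 6.34, 6.32 and 6.20 in proliferating KD cells and 5.86, 5.67 and 5.61 in proliferating control cells, and after RA 5.51, 5.56 and 5.62 in KD cells and 5.44, 5.58 and 5.71 in control cells. The proliferating KD arrays stood apart from the other 9, which overlapped. The change was 0.57 ± 0.08 (SE) in proliferating cells (adjusted p = 0.000244, limma) and -0.02 after RA. All 12 values lay within the range of olfactory receptors, and a filter on low values removes this gene. Ifit2 and Ifit3, which assemble with Ifit1 and lie on the same chromosome, changed by -0.05 ± 0.07 and 0.12 ± 0.11 in proliferating cells and did not pass the test.

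Mx2, a dynamin-like GTPase of the myxovirus resistance family, measured 6.80, 6.84 and 6.74 in proliferating KD cells and 6.43, 6.31 and 6.18 in proliferating control cells, and after RA 6.40, 6.48 and 6.29 in KD cells and 6.14, 6.36 and 6.11 in control cells. KD arrays exceeded control arrays in proliferating cells, by 0.49 ± 0.08 (SE; adjusted p = 0.000758, limma), and the groups overlapped after RA. Only the proliferating KD arrays of Mx2 exceeded the olfactory receptor level, and its other arrays lay between 6.11 and 6.48. Mx1, its relative, had values in the olfactory receptor range and changes of -0.20 and -0.26. In proliferating cells its KD arrays were below its control arrays without a pass (adjusted p = 0.0772, limma), and after RA the change passed the adjusted p alone (0.0274, limma) with the arrays overlapping. Laboratory mouse strains often carry a defective Mx1.

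The adjacent genes Parp9 and Dtx3l, on chromosome 16, encode an ADP-ribosyltransferase and a ubiquitin ligase that act as a complex in interferon signalling. Dtx3l measured 7.27, 7.49 and 7.52 in proliferating KD cells and 6.91, 6.97 and 6.88 in proliferating control cells, and after RA 7.31, 7.16 and 7.19 in KD cells and 7.09, 7.05 and 7.003 in control cells. Parp9 measured 7.63, 7.70 and 7.68 in proliferating KD cells and 7.15, 7.25 and 7.30 in proliferating control cells, and after RA 7.56, 7.55 and 7.33 in KD cells and 7.32, 7.10 and 7.33 in control cells. Both were higher in proliferating KD cells, with no overlap, by 0.51 ± 0.07 for Dtx3l (SE; adjusted p = 0.000201, limma) and 0.44 ± 0.08 for Parp9 (SE; adjusted p = 0.0012, limma). After RA the changes were 0.17 ± 0.07 and 0.23 ± 0.08, below the fold limit; that of Parp9 passed the adjusted p alone (0.0364, limma), with KD and control arrays overlapping. Parp14, the next gene along, is a related ADP-ribosyltransferase and changed by -0.12 ± 0.10 in proliferating cells, within the olfactory receptor range.

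The 2',5'-oligoadenylate synthetases and their relatives were mixed. Oasl1, which in mice restrains the translation of Irf7, measured 8.26, 8.35 and 8.23 in proliferating KD cells and 7.97, 7.98 and 7.94 in proliferating control cells, and after RA 8.30, 8.33 and 8.30 in KD cells and 8.30, 8.39 and 8.44 in control cells. The proliferating control arrays were thus the low ones, and the other 3 groups lay within 8.23 to 8.44. Oasl2 measured 6.88, 7.10 and 7.11 in proliferating KD cells and 6.85, 6.67 and 6.87 in proliferating control cells, and after RA 6.82, 6.70 and 6.68 in KD cells and 6.99, 6.99 and 7.02 in control cells. KD arrays of Oasl2 stood above control arrays in proliferating cells and below them after RA. In proliferating cells the KD change passed the adjusted p and not the fold limit for Oasl1 (0.31 ± 0.05; adjusted p = 0.000465, limma) and for Oasl2 (0.23 ± 0.07; adjusted p = 0.0275, limma), and after RA it did so downward for Oasl2 (-0.26 ± 0.07; adjusted p = 0.0137, limma). Oas1a, Oas2 and Oas3, whose product activates RNase L, changed by -0.01, -0.01 and 0.02 in proliferating cells, and KD and control arrays overlapped.

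Of the remaining effectors, Bst2 (tetherin), which holds budding virions to the cell surface, came nearest to a call. Its change was 0.36 ± 0.06 (SE) in proliferating cells (adjusted p = 0.00062, limma) and 0.27 ± 0.06 after RA (adjusted p = 0.00394, limma), with no overlap of arrays in either state. It was just under the fold limit in proliferating cells, and it passed at 0.38 without control replicate 1 or without control replicate 3 and at 0.41 without KD replicate 1. Eif2ak2, the kinase PKR that halts translation on binding double-stranded RNA, changed by 0.10 ± 0.08 in proliferating cells and 0.23 ± 0.08 after RA, where it passed the adjusted p alone (0.0332, limma). Usp18, the protease that removes Isg15 from proteins and dampens receptor signalling, changed by 0.23 ± 0.09 in proliferating cells, with no overlap but no pass (adjusted p = 0.0824, limma), and by 0.01 after RA. Ifi35, Isg20, Rsad2 (viperin) and the RNA-editing enzyme Adar had proliferating KD changes of 0.16, -0.03, 0.08 and 0.05, and none passed the test.

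**Figure D2:**
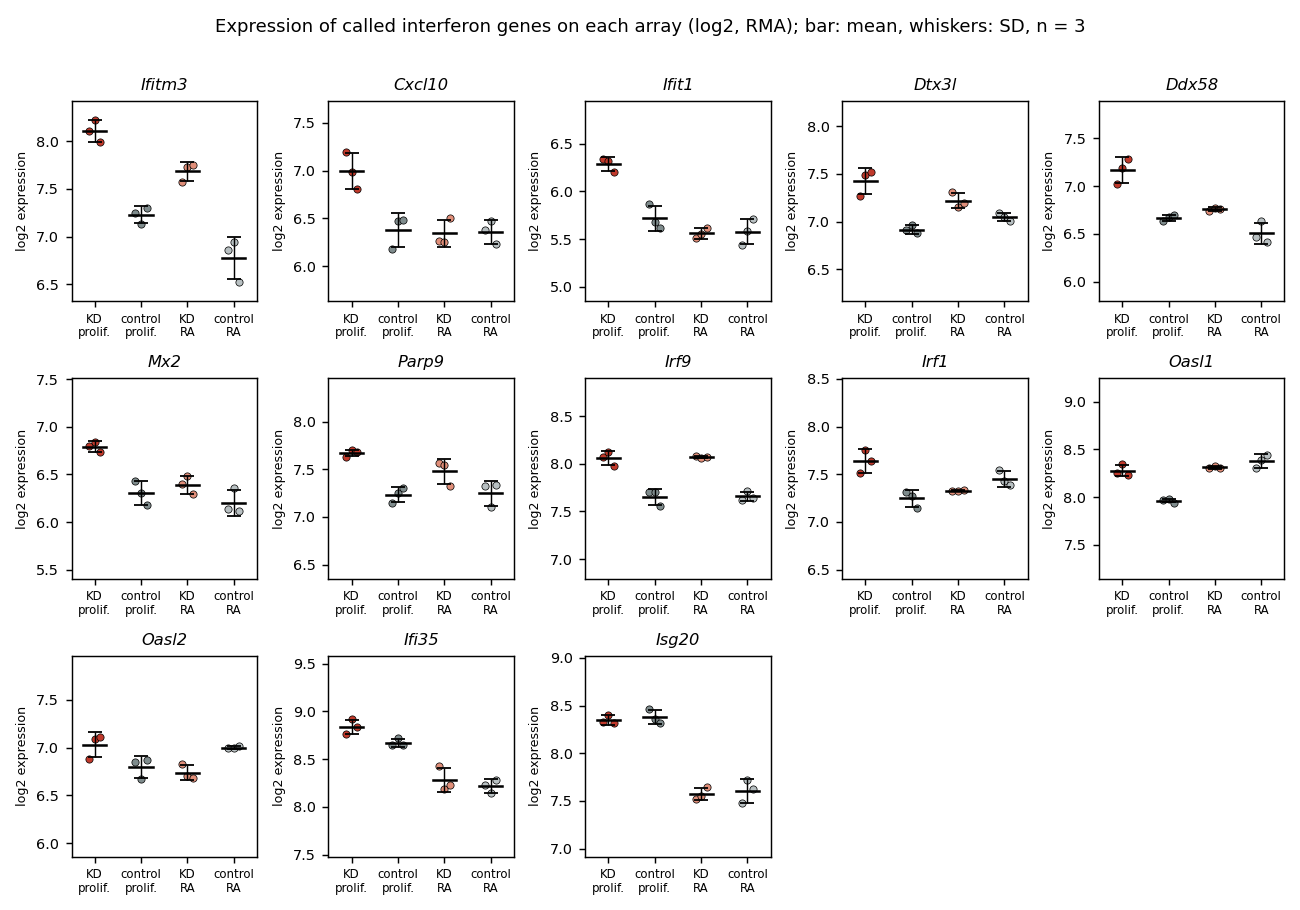
Log2 expression (vertical axis; each panel spans 2.1 log2 units) of the 13 members called in at least 1 comparison, on each of the 12 arrays, for proliferating KD and control cells and for KD and control cells after RA. Points are arrays, bars group means and whiskers SD (n = 3); Cxcl10, Ifit1, Ddx58 and Mx2 are highest in proliferating KD cells, Ifitm3 and Irf9 separate KD from control arrays in both states, and Isg20 separates RA from proliferating arrays in both kinds of cell.

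The promoters of the members were searched for the core of the ISRE, the element that ISGF3 and the Irf factors bind. RefSeq promoters of the assembly GRCm38.p6, from 250 bases before to 50 after the gene start, were at hand for 29 of the 36 measured members; Dhx58, Oas2, Mx1, Mx2, Usp18, Parp9 and Parp14 are named only. The letters searched on both strands were GAAANNGAAA, and overlapping matches were each counted. They occurred in 13 of the 29 members (44.8%), against 3.99% of all 27025 genes with a promoter. The core of the gamma-activated site, TTCNNNGAA, which reads the same on both strands, occurred in 11 of the 29 members (37.9%), against 9.55% of all genes. Of the 7 members with a promoter that were called higher in proliferating KD cells, 4 held the ISRE letters (57.1%), and of the other 22 members 9 did (40.9%). The gamma-activated site core was in 2 of these 7 (28.6%) and in 9 of the other 22 (40.9%). A match is a description of letters and shows no binding.

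The 250 bases before the start are shown for Cxcl10 and Ifit1, which were called, and for Ifit3, which was not and holds the same pair of matched letters as Ifit1. ISRE matches are in capitals, 5′ to 3′ on the gene's strand, and a match on the other strand reads as TTTCNNTTTC.
Cxcl10 at chr5:92348890-92349139 (- strand): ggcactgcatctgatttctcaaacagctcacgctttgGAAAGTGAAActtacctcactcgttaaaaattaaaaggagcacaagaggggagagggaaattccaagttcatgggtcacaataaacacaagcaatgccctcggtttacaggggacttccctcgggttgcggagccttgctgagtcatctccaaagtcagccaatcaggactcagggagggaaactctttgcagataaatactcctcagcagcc
Ifit1 at chr19:34640639-34640888 (+ strand): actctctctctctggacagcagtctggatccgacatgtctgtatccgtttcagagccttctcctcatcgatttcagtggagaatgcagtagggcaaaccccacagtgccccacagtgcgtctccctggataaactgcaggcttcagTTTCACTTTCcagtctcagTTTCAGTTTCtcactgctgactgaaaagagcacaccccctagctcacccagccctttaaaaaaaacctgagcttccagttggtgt
Ifit3 at chr19:34583279-34583528 (+ strand): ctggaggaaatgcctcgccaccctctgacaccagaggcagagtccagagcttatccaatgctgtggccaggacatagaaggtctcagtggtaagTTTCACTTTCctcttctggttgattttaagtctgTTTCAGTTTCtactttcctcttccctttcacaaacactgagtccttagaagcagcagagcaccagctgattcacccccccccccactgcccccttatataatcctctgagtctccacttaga
The matches of Ifit1 began 104 and 85 bases before the start, those of Ifit3 156 and 122 bases before it, and that of Cxcl10 213 bases before it.

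In Ifitm3 and Ddx58, which showed the greatest changes of an effector and of a sensor, the matches lay just after the gene start, and in Bst2 a pair of matches overlapped before it. For Ifitm3 the stretch from the first match to the end of the second is shown, and for the other 2 genes the first match with 10 bases on either side, which in Bst2 takes in the overlapping second match.
Ifitm3 at chr7:141010716-141010742 (- strand): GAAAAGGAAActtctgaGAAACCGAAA
Ddx58 at chr4:40239804-40239833 (- strand): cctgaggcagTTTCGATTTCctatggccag
Bst2 at chr8:71537583-71537612 (- strand): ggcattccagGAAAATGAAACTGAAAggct
No match was found in the promoter of Irf9, Irf1 or Dtx3l, which were called, nor in those of Oasl1 and Oasl2. This says only that these letters are not in that window.

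**Figure D3:**
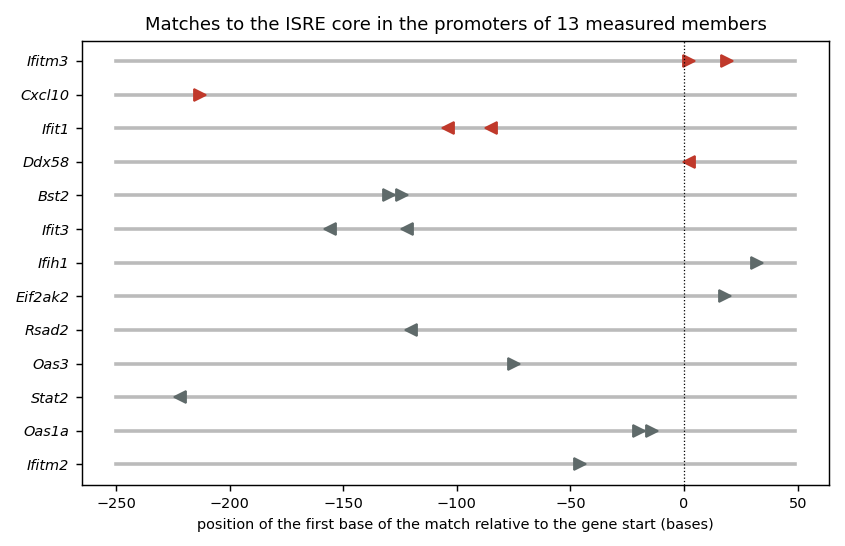
Position of each ISRE match relative to the gene start (horizontal axis, bases; dotted line, start) in the 13 measured members that hold 1 or more, ordered by their KD change in proliferating cells with the highest at the top. Triangles mark the first base of a match and point right for the gene's strand and left for the other, red for members called higher in proliferating KD cells and grey for the rest; grey bars span the promoter window.

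Genes around the members were looked at because neighbours can shift together. For each member, the median KD change (mean of both states) was taken over 50 neighbouring protein-coding genes above the median level, 25 on either side, leaving out members. Around Ifitm3 this median was 0.03 and the change of Ifitm3 itself 0.89; around Irf9 the values were 0.03 and 0.41, and around Ddx58 -0.05 and 0.38. The genes around Bst2 were at 0.12 and Bst2 at 0.32. Oasl1 and Oasl2, next to each other on chromosome 5, lay among genes with a median of -0.20, while the members themselves were at 0.12 and -0.02.

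After RA, 2 of the 36 members were higher in KD than in control cells and 0 were lower. Of all genes tested, 3.71% were called higher and 4% lower. The 2 were Ifitm3 and Irf9, with the values given above, and the same 2 were called without the variance filter, against 1.86% of all genes called higher. The median change of the members was -0.01, against -0.03 over all genes, and 16 of 36 lay above 0, against 41.4% of all genes. In 7 members every KD array exceeded every control array and in 5 every KD array was below, against 14.5% and 19.5% of all genes. With arrays centred on their medians, the split over all genes was 277 higher and 541 lower, against 370 and 399 as deposited, and Irf9 then fell short of the fold limit.

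The response to RA itself was examined within each kind of cell. In KD cells 7 of the 36 members were lower after RA than in proliferating cells and 0 were higher, where 4.57% of all genes tested were called lower and 5.37% higher. In control cells 3 members were lower and 1 was higher, where 3.76% of all genes tested were called lower and 5.58% higher. Without the variance filter the same members were called, and 2.3% of all genes in KD cells and 1.87% in control cells were lower. The median change of the members was -0.11 in KD cells, against -0.01 over all genes, and -0.02 in control cells, against 0.0026 over all genes. In KD cells all RA arrays were below all proliferating arrays in 19 members and above them in 1, where 21.2% and 13.5% of all genes did so. In control cells this held for 6 members downward and 7 upward, where 16.9% and 16.6% of all genes did so.

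Isg20, an exonuclease that degrades viral RNA, fell with RA in both kinds of cell. It measured 7.52, 7.56 and 7.65 after RA in KD cells and 8.33, 8.40 and 8.31 in proliferating KD cells, and 7.48, 7.72 and 7.62 after RA in control cells and 8.46, 8.35 and 8.32 in proliferating control cells. The change was -0.77 ± 0.07 (SE) in KD cells (adjusted p = 3.78e-06, limma) and -0.77 ± 0.07 in control cells (adjusted p = 3.58e-06, limma). The difference between these 2 responses was -0.0040 ± 0.09.

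Ifi35, an interferon-induced leucine zipper protein, measured 8.43, 8.19 and 8.23 after RA in KD cells and 8.76, 8.92 and 8.83 in proliferating KD cells, and 8.23, 8.14 and 8.28 after RA in control cells and 8.65, 8.72 and 8.65 in proliferating control cells. It fell in both, with changes of -0.55 ± 0.07 in KD cells and -0.45 ± 0.07 in control cells (SE; adjusted p = 6.31e-05 and 0.000295, limma). Ifitm3 also fell in both, with changes of -0.43 ± 0.10 in KD cells and -0.45 ± 0.10 in control cells (SE; adjusted p = 0.00604 and 0.00469, limma). The call for Ifitm3 in KD cells was lost at -0.37 without proliferating KD replicate 2 or RA-treated KD replicate 1, and that in control cells at -0.33 without RA-treated control replicate 3. Irf3 changed by -0.34 in KD cells and -0.35 in control cells, past the adjusted p and short of the fold limit in both. It passed that limit in KD cells at -0.39 without RA-treated KD replicate 3, and in control cells at -0.39 without proliferating control replicate 2.

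The other 4 members called lower after RA in KD cells were among those that were higher in proliferating KD than in proliferating control cells, a comparison that uses the same proliferating KD arrays. Ifit1 changed with RA by -0.73 ± 0.08 in KD cells and -0.14 ± 0.08 in control cells, Cxcl10 by -0.65 ± 0.11 and -0.02 ± 0.11 in the same order, Ddx58 by -0.41 ± 0.07 and -0.16 ± 0.07, and Mx2 by -0.40 ± 0.08 and -0.10 ± 0.08. In KD cells all 4 passed (adjusted p = 2.56e-05, 0.000826, 0.000802 and 0.00206, limma), and in control cells none did. The control arrays of Ifit1, Cxcl10 and Mx2 lay within the olfactory receptor range in both states. Calls near the limit moved with single arrays: Ddx58 was at -0.34 without proliferating KD replicate 3, and Mx2 at -0.37 without proliferating KD replicate 2, at -0.35 without RA-treated KD replicate 3 and at -0.36 with array weights. Oasl1 was the member called higher with RA in control cells, at 0.41 ± 0.05 (SE; adjusted p = 4.32e-05, limma), and its change in KD cells was 0.03 ± 0.05.

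**Figure D4:**
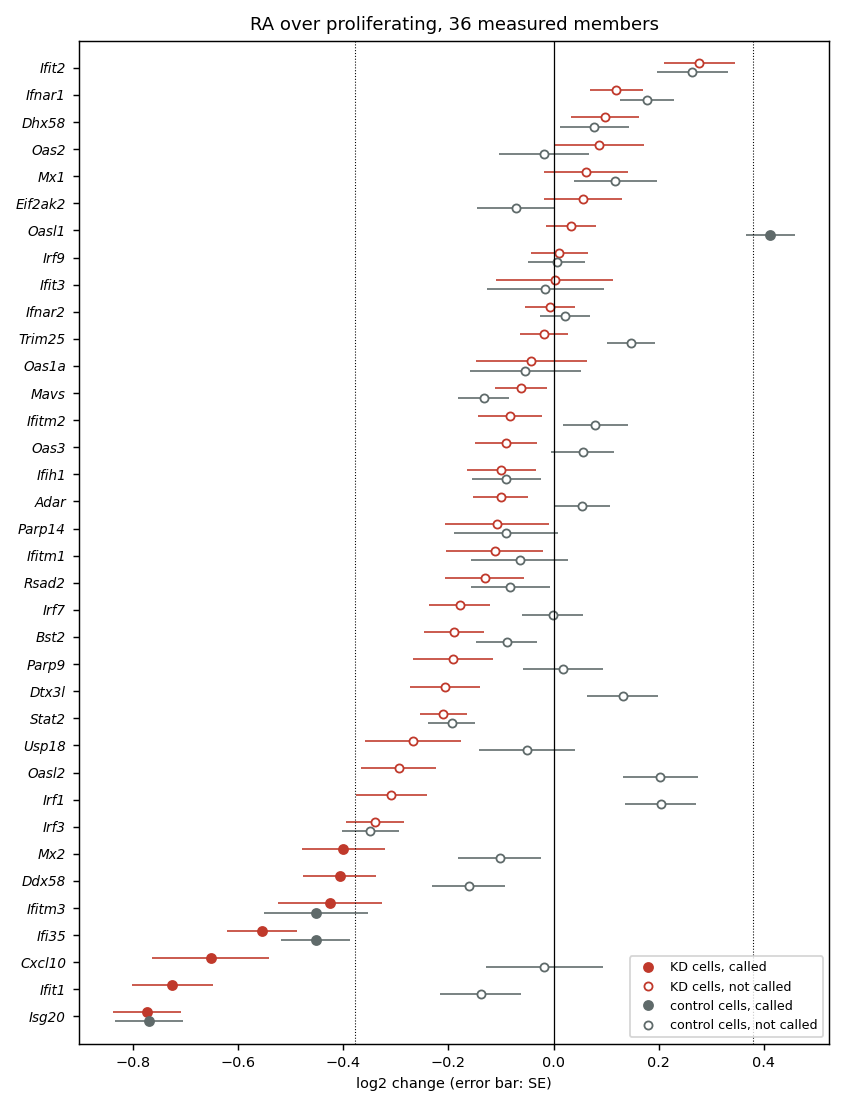
Log2 change of RA-treated over proliferating cells for the 36 measured members (horizontal axis; error bars, SE of the limma fit), in KD cells (red) and control cells (grey), ordered by the change in KD cells. Filled points were called, and dotted lines mark the 1.3-fold limit; Isg20, Ifi35 and Ifitm3 fall in both kinds of cell, and Ifit1, Cxcl10, Ddx58 and Mx2 were called in KD cells alone.

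Whether the RA response differed between KD and control cells was tested as an interaction, with the response of control cells subtracted from that of KD cells. It was called lower for 4 of the 36 members and higher for 0, where 0.752% of all genes tested were called lower and 0.492% higher. The 4 were Ifit1 (-0.59 ± 0.11, SE; adjusted p = 0.0273, limma), Irf1 (-0.51 ± 0.10, adjusted p = 0.0272), Oasl2 (-0.50 ± 0.10, adjusted p = 0.0377) and Oasl1 (-0.38 ± 0.07, adjusted p = 0.0216). The same 4 were called without the filter, against 0.311% of all genes called lower. Cxcl10 had the largest difference of the members, -0.63 ± 0.16, and did not pass (adjusted p = 0.0691, limma). For Ddx58 and Mx2, called with RA in KD cells alone, the difference itself did not pass (adjusted p = 0.231 and 0.202, limma). Ifitm3 and Irf9 had differences of 0.03 ± 0.14 and 0.0048 ± 0.08. The 4 calls depended on single arrays: leaving out 1 array left between 0 and 4 members called, and 0 without control proliferating replicate 2 or 3, RA-treated control replicate 2 or 3, or proliferating KD replicate 2. The count was 1 without RA-treated KD replicate 2 or 3, and 2 without control proliferating replicate 1, RA-treated control replicate 1 or proliferating KD replicate 3. With the replicate number added to the model, Ifit1 and Oasl2 no longer passed (adjusted p = 0.0542 and 0.0643, limma). Irf1 was called on the probe set that matches its RefSeq transcripts, and with both probe sets averaged its difference was -0.20 (adjusted p = 0.172, limma). With arrays centred on their medians, the split over all genes was 36 higher and 115 lower, against 49 and 75 as deposited.

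Over all members, the median deviation from each gene's mean over the 12 arrays was 0.08, 0.13 and 0.09 on the proliferating KD arrays, against -0.02, -0.03 and -0.05 on the proliferating control arrays. After RA it was -0.04, -0.01 and -0.02 in KD cells and -0.09, -0.03 and -0.08 in control cells. The proliferating KD arrays were the only ones above 0, and the 2 RA groups overlapped.

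**Figure D5:**
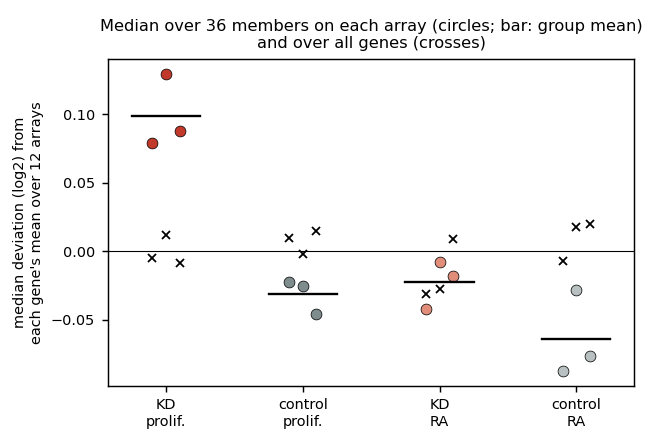
Median deviation of the 36 members from each gene's own mean over the 12 arrays (vertical axis, log2; circles, 1 per array; bars, group means) for proliferating KD and control cells and for KD and control cells after RA. The 3 proliferating KD arrays sit between 0.08 and 0.13, above the other 9, which lie between -0.09 and -0.01; crosses give the same median over all genes.

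Other genes of the pathway were read from lists chosen by function. Beside their counts stand the shares over all genes tested, 3.96% higher and 3% lower in KD than in control cells when proliferating and 3.71% and 4% after RA, and those called higher without the variance filter, 1.98% and 1.86%. Of 13 measured interferon and cytokine ligands, 0 were called between KD and control cells in either state; interferon beta and the measured interferon alpha genes were among them. Il6, an inflammatory cytokine, was lower after RA in KD cells (-0.65 ± 0.10) and in control cells (-0.82 ± 0.10). Ifna12, an interferon alpha gene, was called higher after RA in control cells (0.47 ± 0.16; adjusted p = 0.0432, limma) with overlapping arrays, and not without the variance filter (adjusted p = 0.0606, limma). Of 18 further receptors, kinases and factors, 0 were called between KD and control cells in either state. Tyk2, a kinase bound to Ifnar1, and Ptpn2, of the same list, came near the fold limit in proliferating cells. Each changed by 0.37 ± 0.05 (SE, adjusted p = 0.000346 and 0.000148, limma).

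Of 23 measured further sensors and adaptors, 13 of which passed the filter, 3 were higher in KD cells in both states and 0 lower. They were Sting1, the adaptor of cytosolic DNA sensing (0.47 ± 0.07 in proliferating cells and 0.85 ± 0.07 after RA), Cgas, the DNA sensor upstream of it (0.40 ± 0.07 and 0.83 ± 0.07), and Myd88, the adaptor of Toll-like receptors (0.47 ± 0.06 and 0.44 ± 0.06). The proliferating change of Cgas was 0.35, short of the fold limit, without control replicate 1. Of 54 further interferon-stimulated genes, 28 of which passed the filter, 3 were higher and 1 lower in KD cells in each state. Irgm1, an immunity-related GTPase, was higher by 0.96 ± 0.05 in proliferating cells and 0.52 ± 0.05 after RA, and Herc6, the ligase that attaches Isg15 in mice, by 0.60 ± 0.08 and 0.42 ± 0.08; Ifitm7 was lower, at -0.69 ± 0.10 and -0.48 ± 0.10. The change of Herc6 after RA was just under the limit, at 0.38, without RA-treated KD replicate 1 and with arrays centred on their medians. Of 15 NF-kB targets, 8 of which passed the filter, 3 were higher in proliferating KD cells, namely the inhibitor Nfkbia (0.65 ± 0.06), the apoptosis inhibitor Birc3 (0.58 ± 0.06) and the subunit Nfkb2 (0.44 ± 0.06), and 0 were called after RA. In the proliferating state 5 of the 12 neuroblastoma and sympathoadrenal markers were also higher in KD cells, so other groups than the interferon genes moved in the same comparison; their part in the values of the members was not tested.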

How the data were processed

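RNA of 12 N2A samples was measured on single-colour Affymetrix Mouse Gene 1.0 ST arrays. What the authors deposited is 1 log2 value per probe set and array; the study's methods name RMA, with its background correction and quantile step, at the gene level. Versions of these tools, and the genome build of the array annotation, are not given in the sources used. Since arrays were scaled to each other, a rise or fall of all RNA in a cell would not show. Array medians lay between 7.146 and 7.209, and precision is limited by the 3 arrays of a group. Among 35556 probe sets, 1 symbol was given for 21789, several for 1621 and none here for 12146. Where several probe sets named 1 gene, the one with the largest interquartile range was used, which applied to 3 members.

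The study's methods filter out genes of little variation by a variance cut-off without naming the measure; here the lower 50% of genes by interquartile range was removed, which left 9969. The 4 groups entered 1 linear model of the 12 arrays in limma 3.58.1 under R 4.3.3 (lmFit, eBayes, two-sided, Benjamini-Hochberg), with no replicate block; SE is that of this fit. The code was tested on simulated arrays with known changes. Alternatives covered the filters, the probe set rule, the arrays fitted, the scaling, array weights, an intensity trend, a replicate block and leaving out each array. The members and the lists of other genes were chosen with earlier results of these data known. Every array's value is given for members called in 1 or more comparisons and for receptor subunits, sensors and interferon factors. From other lists up to 4 called genes were named, and Tyk2 and Ptpn2 were added after their values were seen. Promoters and their coordinates are those of RefSeq (GRCm38.p6).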

Additional observations from a re-analysis of the deposited data

Results flagged for a closer look

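The KD effect differed between the proliferating and the RA-treated state, by the interaction test of limma, for 4 members and for 2 genes of the other pathway lists. The response to RA was lower in KD than in control cells, with differences of -0.59 for Ifit1, -0.51 for Irf1, -0.50 for Oasl2 and -0.38 for Oasl1 on the log2 scale, and of -0.44 each for Irgm1 (-0.4414) and Nfkbia (-0.4447). Adjusted p-values were 0.0273, 0.0272, 0.0377, 0.0216, 0.0164 and 0.0355 in this order (limma). Ifit1 lay within the range of olfactory receptors in every group. Irgm1 passed in each fit that left out 1 array, and the others did not. Outside the pathway lists, 1 of 12 measured neuroblastoma and sympathoadrenal markers was also called lower in the interaction. Of all genes tested, 0.752% were called lower.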

How the results depend on the processing

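In proliferating cells the count of members called between KD and control cells stayed at 8 or 9 under the alternatives that kept all arrays, with 640 to 698 over all genes, and between 7 and 10 when 1 array was left out, with 675 to 741 over all genes. Among these alternatives, the filter on low values kept Cxcl10 and Mx2 through their proliferating KD mean alone, the group called higher. Its count of 8 is thus not separate evidence for the calls of Cxcl10 and Mx2. After RA the count was 2 in each fit without 1 array, and 1, Ifitm3, with arrays centred on their medians or quantile normalisation repeated; over all genes it was 768 to 850 without 1 array. For RA in control cells leaving out 1 array gave 3 to 5 members and 928 to 965 genes, and for RA in KD cells 5 to 7 members and 963 to 1043 genes. The interaction was the least stable: leaving out 1 array gave 0 to 4 members and 42 to 150 genes. Deviations of same-numbered arrays from their group means correlated between -0.08 and 0.21 over the 6 pairs of groups, above 0.1 in 4 of 18 pairs of arrays, and an array correlated best with its own number in 16 of 36 comparisons. Between proliferating KD and control cells this held for all 6 arrays (correlations of 0.08, 0.04 and 0.03), and the correlations between KD and control cells after RA were 0.19, -0.01 and 0.13. The numbers were not taken as pairs in the main fits, and these correlations do not settle whether the samples were paired. With the number as a replicate block the interaction kept 2 members, Irf1 and Oasl1, and 94 genes, and Ifit1 and Oasl2 no longer passed (adjusted p = 0.0542 and 0.0643, limma), and the member counts of the other comparisons stayed within 1.5 times. Cxcl10 passed the interaction test with the low-value filter (-0.63, adjusted p = 0.0292, limma), with arrays centred (-0.67, 0.0475), with quantile normalisation repeated (-0.66, 0.0492), with array weights (-0.67, 0.049) and with an intensity trend (-0.63, 0.0145); over its alternatives with all arrays the adjusted p lay between 0.0145 and 0.112. The low-value filter kept Cxcl10, whose group mean exceeded the olfactory receptor level in proliferating KD cells alone (6.99). Its means were 6.38 in proliferating control cells, and 6.34 and 6.36 in KD and control cells after RA. That filter thus selects Cxcl10 by the group that drives the difference tested, so the pass with it is not separate evidence for the difference. The cause of these differences between settings was not tested. No result changed direction while called.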
